A study of Mus musculus with 6 samples.

Results

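Integrins and laminins are the receptors and ligands by which cells hold on to the matrix around them. The chains described here were the 36 mouse genes for 26 integrin chains and 10 laminin chains, chosen by name and found by Entrez Gene identifier among the 20007 genes of the count tables. All 36 were found, and 33 had enough counts to be tested. RNA had been sequenced on the BGISEQ-500 platform from 6 libraries of KM mice, 2 in each of 3 groups. MEFs were embryonic fibroblasts, labelled as taken 13.5 days post coitum, with an earlier day also possible by the growth protocol. CiSCs were passaged MEFs exposed to small molecules, unnamed in the labels, to make cells resembling Sertoli cells. MSCs were Sertoli cells, which nurse germ cells in the seminiferous tubules, from the testes of mice at postnatal day 60. All cells had been plated on dishes and carried no stated genetic change. No group is labelled as passaged MEFs without compounds, so passage and compound treatment cannot be told apart.

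An integrin on the cell surface is a pair of 1 alpha and 1 beta chain, and the alpha chain largely sets which ligand is bound. The chain Itgb1 pairs with many alpha chains to bind fibronectin, collagens or laminins, Itgb2 pairs with alpha chains of white blood cells, and the alpha v chain takes several beta partners. A laminin is a trimer of 1 alpha, 1 beta and 1 gamma chain, and laminins form the first sheet of a basement membrane, such as the one on which Sertoli cells rest in the tubule wall. Integrins signal through adaptors that bind their cytoplasmic tails.

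Library totals lay between 19294671 and 20418587 deposited counts, so that 1 read stood for 0.0468 to 0.0543 CPM, CPM being the library-scaled count, here with library sizes scaled by the trimmed mean of M values. Over all 15272 tested genes, the quasi-likelihood test of edgeR, adjusted by the Benjamini-Hochberg method, called 40.9% in CiSCs against MEFs at an adjusted p under 0.05, with 19.6% higher and 21.3% lower. In MSCs against MEFs it called 42.5%, with 22.5% higher and 20.0% lower in MSCs. In CiSCs against MSCs it called 42.8%, with 17.7% higher and 25.1% lower in CiSCs. No label tells if the 2 libraries of a group are independent cultures or animals, and the p-values therefore rest on a spread that may be technical. Of 11 tested Sertoli cell markers, 11 were higher in MSCs than in MEFs and 4 were higher in CiSCs, among them Clu and Wt1. Gata4 lay at 0.0954 and 0.0936 CPM in CiSCs against 239.8 and 265 CPM in MSCs. Fshr was at 0 in both MEFs and CiSCs, which allows up to 0.0769 and 0.0709 CPM. MEFs carried RNA of leukocyte markers at a summed 10960 to 18150 CPM, against 33.1 to 48.2 CPM in CiSCs and 1214 to 1299 CPM in MSCs. Most of each sum was Lyz2, at 7161 and 12500 CPM in MEFs, 20.3 and 30.3 CPM in CiSCs and 782 and 718 CPM in MSCs. The 8 listed markers of steroid-producing Leydig cells summed to 1554 to 1579 CPM in MSCs against 11.2 to 13.0 CPM in the other groups. Cyp11a1 and Star made up most of that sum, at 783 ± 14.5 and 425 ± 1.87 CPM (SD, n = 2). Cyp17a1 and Lhcgr reached at most 0.109 CPM in any library and Hsd17b3 was at 0. All 5 tested Leydig markers were higher in MSCs than in MEFs, beside 22.5% of all tested genes. Insl3 was among these 5, at a level given with the laminin chains below. Endothelial markers summed to 107 to 113 CPM in MSCs against 24.5 to 38.4 CPM elsewhere. The 2 MEF libraries stood further apart than those of the other groups, with a median log2 ratio of MEFs 2 to MEFs 1 of -0.42 over the longest genes, and calls on single chains that change without one of them are given beside the chain. These are bulk libraries, in which fewer cells of a type and less RNA per cell cannot be told apart.

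Both families differed widely between the groups, and in different ways. Of the 33 tested chains, 21 were called in CiSCs against MEFs, 10 higher and 11 lower, which is 63.6% beside the 40.9% of all tested genes. In MSCs against MEFs 25 were called, 17 higher and 8 lower, or 75.8% beside 42.5%. In CiSCs against MSCs 24 were called, 7 higher and 17 lower in CiSCs, or 72.7% beside 42.8%. Of these counts, the 10 higher in CiSCs than in MEFs became 5 without CiSCs 2, and the 17 higher in MSCs than in MEFs became 11 without MSCs 1 or MSCs 2. The count in CiSCs against MSCs rested on which libraries were used, since it was 15 without CiSCs 1, CiSCs 2 or MSCs 1, 13 without MSCs 2 and 28 without MEFs 1 or MEFs 2. Over all tested genes the number of calls also fell in the fits without a CiSC or MSC library and rose in those without a MEF library. These shifts were thus not particular to the chains, and the numbers for all genes are given in the closing section. The counts describe the chains that passed the filter on low counts, which keeps a gene that is high in a single group. In that comparison 41.3% of the calls over all tested genes were higher in CiSCs, and with libraries scaled to total counts alone the share was 56.9%, with all fold changes shifted by a median of 0.24 on the log2 scale. Both comparisons against MEFs used the same 2 MEF libraries, so their values are given side by side.

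**Figure D1:**
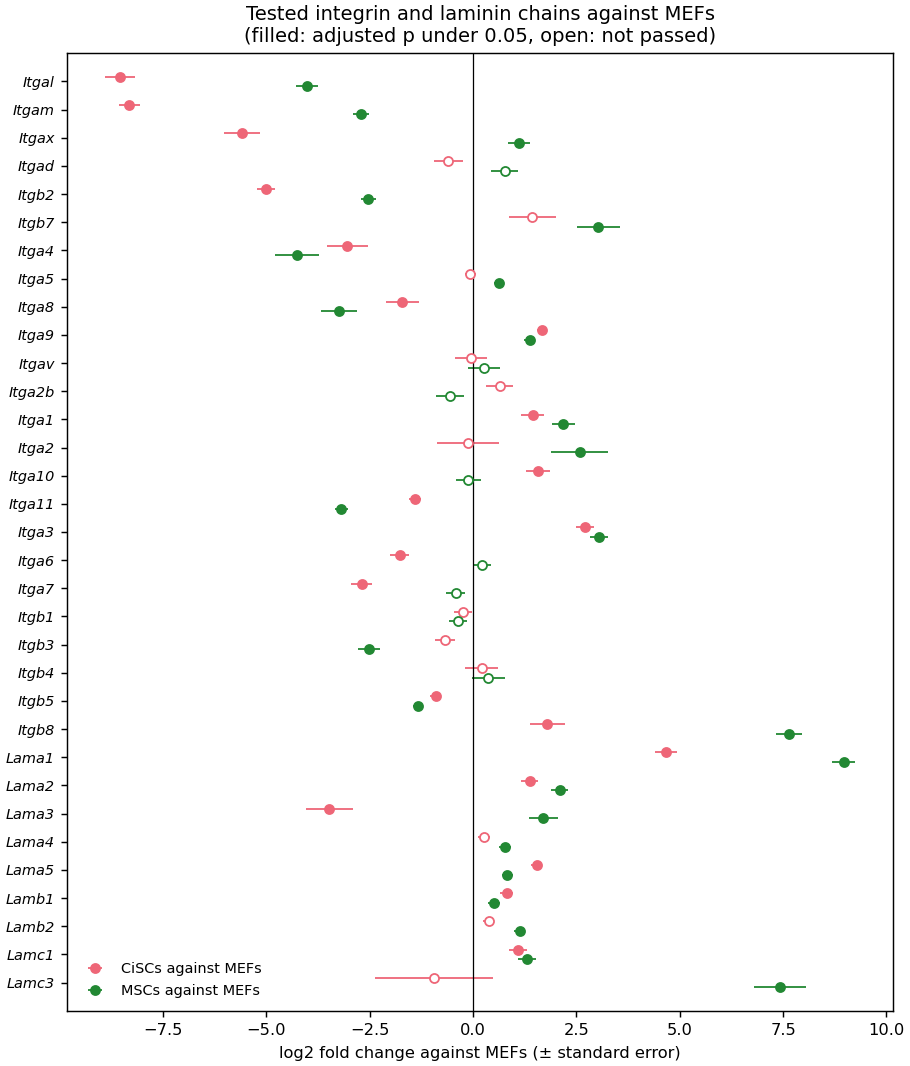
Log2 fold change against MEFs (horizontal axis, bars are standard errors) of each of the 33 tested chains, for CiSCs and for MSCs, with filled points for an adjusted p under 0.05 and open points otherwise. Itgal and Itgam have the lowest values in CiSCs, at -8.53 and -8.31, and Lama1 the highest value in MSCs, at 8.97, while all 9 tested laminin chains lie to the right of 0 in MSCs.

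By direction of change, 5 chains (Itga1, Itga3, Itga9, Lamb1 and Lamc1) rose against MEFs in both other groups without a called difference between CiSCs and MSCs. Lama1, Lama2 and Itgb8 rose in both and were higher in MSCs than in CiSCs, and Lama5 rose in both and was higher in CiSCs. Itgal, Itgam and Itgb2 fell in both and were lowest in CiSCs, whereas Itga8, Itga11 and Itgb5 fell in both and were lowest in MSCs. Itgax and Lama3 fell in CiSCs and rose in MSCs. Itga6 and Itga7 fell in CiSCs alone and Itga10 rose in CiSCs alone, each of them also differing between CiSCs and MSCs. Itgb3 fell and Itgb7, Itga2, Itga5, Lama4, Lamb2 and Lamc3 rose in MSCs, with each of these 7 differing between CiSCs and MSCs and not called between CiSCs and MEFs. Itgad and Itga2b were called between CiSCs and MSCs, and Itgav, Itgb1 and Itgb4 in no comparison.

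Of the chains of white blood cell integrins, Itgal, Itgam, Itgax and Itgb2 were far lower in CiSCs than in both other groups. Among the 6 tested, 4 fell in CiSCs against MEFs and none rose, beside 21.3% and 19.6% of all tested genes. In MSCs against MEFs 3 fell and 2 rose, beside 20.0% and 22.5%. In CiSCs against MSCs 6 of 6 were lower, beside 25.1% of all tested genes. Without any one of the CiSC or MSC libraries Itgad and Itgb7 were not called there. Itgam, Itgax and Itgad are neighbours in the RefSeq gene order, and the first 2 are shown here because they went opposite ways in MSCs. The sequences run from 250 bases before to 50 after the annotated start, from RefSeq on GRCm38.p6, at chr7:128062390-128062689 and chr7:128129300-128129599, both on the plus strand. Capitals mark GAGGAA on either strand (TTCCTC where it lies on the other), letters found at the core of many sites of the myeloid transcription factor PU.1.
Itgam: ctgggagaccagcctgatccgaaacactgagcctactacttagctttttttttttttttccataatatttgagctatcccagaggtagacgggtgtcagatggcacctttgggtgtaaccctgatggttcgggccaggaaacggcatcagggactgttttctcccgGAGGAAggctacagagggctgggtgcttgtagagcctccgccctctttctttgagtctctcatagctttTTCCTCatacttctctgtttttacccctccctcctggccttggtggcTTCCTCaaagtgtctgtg
Itgax: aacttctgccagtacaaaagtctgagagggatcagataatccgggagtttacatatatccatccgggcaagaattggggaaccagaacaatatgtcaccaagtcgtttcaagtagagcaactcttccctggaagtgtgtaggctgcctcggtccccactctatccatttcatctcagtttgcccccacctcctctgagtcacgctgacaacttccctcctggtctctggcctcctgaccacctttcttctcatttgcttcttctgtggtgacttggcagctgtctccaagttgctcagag
The Itgam window held 3 matches, 1 on the printed strand and 2 on the other, and the Itgax window held 0. Of 32851 such windows 28.3% held at least 1 match, as did 14 of the 26 windows found for 23 of the chains, and a match is a description of letters, not of binding.

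Itgam, the alpha M chain of the complement receptor CR3 on macrophages and neutrophils, lay at 551 and 723 CPM in MEFs, 1.67 and 2.34 CPM in CiSCs and 96.7 and 98.3 CPM in MSCs. It fell 317-fold in CiSCs (log2 fold change -8.31 ± 0.27, adjusted p = 1.49e-05) and 6.54-fold in MSCs (log2 fold change -2.71 ± 0.20, adjusted p = 0.000127). The groups kept one order in every library, with MEFs highest, MSCs between and CiSCs near 2 CPM. Its value is uncertain in one respect, because 70.0% of its exonic bases are shared with Gm49368 on the same strand in GENCODE vM21, and how such reads had been assigned is not given in the sources used here.

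Itgal, the alpha L chain of the lymphocyte and myeloid receptor LFA-1, lay at 95.3 and 102 CPM in MEFs, 0.0954 and 0.424 CPM in CiSCs and 6.38 and 5.87 CPM in MSCs. It fell in CiSCs (log2 fold change -8.53 ± 0.37, adjusted p = 1.85e-05) and in MSCs (log2 fold change -4.01 ± 0.26, adjusted p = 8.11e-05), and was lower in CiSCs than in MSCs (log2 fold change -4.53 ± 0.38, adjusted p = 0.000189). The CiSC level rested on 11.1 reads over both libraries, and the log2 fold change against MEFs was -7.87 without CiSCs 1 and -9.95 without CiSCs 2. Against MSCs these values were -3.83 and -5.91.

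Itgb2, the beta chain shared by these alpha chains, lay at 279 and 383 CPM in MEFs, 10.9 and 9.68 CPM in CiSCs and 54.8 and 59.9 CPM in MSCs. It fell in CiSCs (log2 fold change -5.01 ± 0.21, adjusted p = 1.85e-05) and in MSCs (log2 fold change -2.53 ± 0.19, adjusted p = 0.000142). The 3 groups stood in the same order as for Itgam, with MEFs highest and CiSCs lowest and no overlap. Per kilobase of exon, a scale on which genes can be compared, the level of Itgb2 was 0.757 ± 0.0395 times the sum of its 4 alpha chains in MEFs (SD, n = 2), 0.796 ± 0.0407 times in MSCs and 5.28 ± 1.65 times in CiSCs. The summed alpha chains were 146 ± 25.2 CPM per kb in MEFs and 0.68 ± 0.159 CPM per kb in CiSCs, so the CiSC ratio has a small denominator.

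Itgax, the alpha X chain found on dendritic cells and macrophages, took another course and lay at 6.66 and 5.18 CPM in MEFs, 0.17 and 0.0468 CPM in CiSCs and 12.8 and 12.8 CPM in MSCs. It was highest in both MSC libraries, intermediate in MEFs and close to 0 in CiSCs, with 4.57 reads over both CiSC libraries. It fell in CiSCs (log2 fold change -5.58 ± 0.43, adjusted p = 0.000161) and rose 2.15-fold in MSCs (log2 fold change 1.11 ± 0.27, adjusted p = 0.0177). The rise in MSCs was not called without MSCs 1 (adjusted p = 0.109) or without MSCs 2 (adjusted p = 0.108), although its size stayed at 1.11 and 1.10. In CiSCs the log2 fold change against MEFs was -6.82 without CiSCs 1 and -4.95 without CiSCs 2, and against MSCs -7.90 and -6.02.

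Other leukocyte RNA also differed between the groups. Of 11 tested leukocyte markers of 15 listed, 11 fell in CiSCs and 10 fell in MSCs against MEFs, and 10 were lower in CiSCs than in MSCs. The shares of all tested genes that were lower in these comparisons were 21.3%, 20.0% and 25.1%. Ptprc, the pan-leukocyte surface protein CD45, lay at 168 and 121 CPM in MEFs, 0.0954 and 0.281 CPM in CiSCs and 26.1 and 24 CPM in MSCs. Csf1r, the receptor for macrophage growth factor, lay at 1160 and 1744 CPM in MEFs, 1.06 and 2.19 CPM in CiSCs and 113 and 102 CPM in MSCs. The T cell marker Cd3e was at 0 in MEFs and CiSCs, which allows up to 0.0769 and 0.0709 CPM, and the B cell marker Cd79a lay below 0.43 CPM in every library. As a ratio of CPM to that of Ptprc in the same library, Itgax stood at 0.0397 and 0.0429 in MEFs and at 0.489 and 0.535 in MSCs, so it was higher per unit of Ptprc in both MSC libraries than in both MEF libraries. Per unit of Csf1r, and of the leukocyte marker Laptm5, Itgax was likewise higher in both MSC libraries. Itgal went the other way, at 0.568 and 0.8445 times Ptprc in MEFs and 0.2445 and 0.245 times in MSCs. Against Laptm5 it stood at 0.1375 and 0.1146 in MEFs and 0.0695 and 0.0698 in MSCs. Against Csf1r the gap was narrow, with 0.0821 and 0.0584 in MEFs and 0.0565 and 0.0576 in MSCs. Itgam stood at 3.29 and 6.00 times Ptprc in MEFs and 3.70 and 4.10 times in MSCs, and these ranges overlapped. Set against Csf1r, however, Itgam stood at 0.475 and 0.415 in MEFs and 0.856 and 0.965 in MSCs, and against Laptm5 at 0.795 and 0.814 in MEFs and 1.05 and 1.17 in MSCs, so by these markers it was higher in both MSC libraries. Itgb2 stood at 1.66 and 3.17 times Ptprc in MEFs, 2.10 and 2.50 times in MSCs, and 114 and 34.5 times in CiSCs, where Ptprc itself was at most 0.281 CPM. Against Csf1r, Itgb2 stood at 0.24 and 0.22 in MEFs and 0.485 and 0.588 in MSCs, and against Laptm5 at 0.402 and 0.431 in MEFs and 0.597 and 0.712 in MSCs. For Itgam and Itgb2 the MEF and MSC libraries thus overlapped by 1 of the 3 markers and did not by the other 2. The part of other leukocyte RNA in the changes of these chains was not tested.

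**Figure D2:**
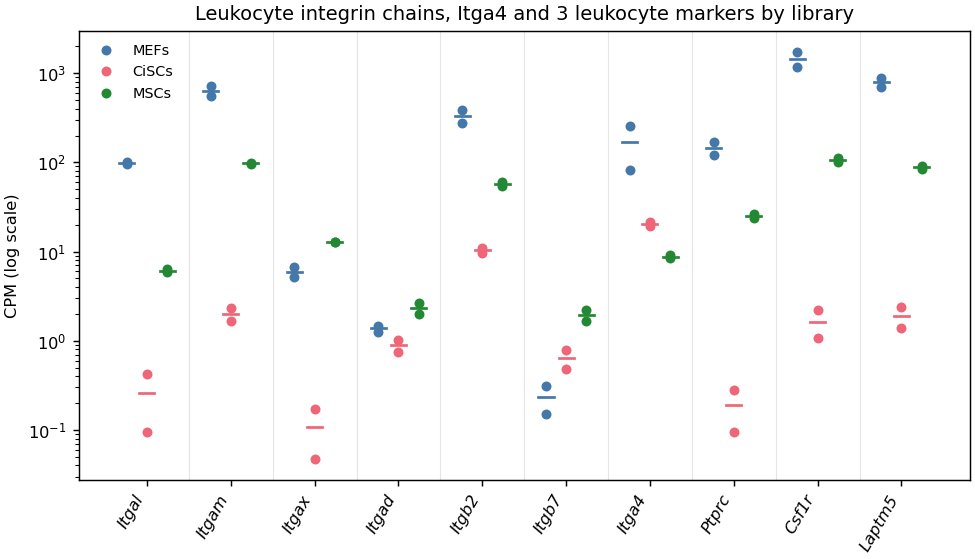
CPM on a log scale for 7 integrin chains and the leukocyte markers Ptprc, Csf1r and Laptm5, with 1 point per library and a bar at the mean of each group of 2. Itgal, Itgam and Itgb2 follow the markers in order, with MEFs highest and CiSCs lowest, while Itgax, Itgad and Itgb7 are highest in MSCs and Itga4 is lowest in MSCs.

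The remaining chains of this kind were low. Itgad, the alpha D chain, stayed between 0.749 and 2.62 CPM and was lower in CiSCs than in MSCs (log2 fold change -1.36 ± 0.34, adjusted p = 0.0195). Parts of its exons are shared with 4 other gene models, among them Cox6a2 on the opposite strand, and whether counting used strand is not given in the sources used here. Itgb7, the beta 7 chain of gut-homing lymphocytes, lay at 0.152 to 0.795 CPM in MEFs and CiSCs and at 1.65 and 2.23 CPM in MSCs, and it rose in MSCs against MEFs (log2 fold change 3.03 ± 0.53, adjusted p = 0.0046). Itgae, the alpha E chain that pairs with it, was not tested and reached at most 0.405 CPM. The call on Itgad, and that on Itgb7 between CiSCs and MSCs, was lost without any one of CiSCs 1, CiSCs 2, MSCs 1 or MSCs 2, and in DESeq2 (adjusted p = 0.0591 and 0.101).

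Of 6 tested alpha chains of fibronectin receptors and of receptors for the RGD motif, 1 rose and 2 fell in CiSCs against MEFs, beside 19.6% and 21.3% of all tested genes, a share near the background. In MSCs against MEFs 2 rose and 2 fell, beside 22.5% and 20.0%. Without CiSCs 1 or CiSCs 2 the chains that fell in CiSCs numbered 1, and without MSCs 1 or MSCs 2 the chains that rose in MSCs numbered 1. Itga5, which with Itgb1 forms the main fibronectin receptor, lay at 443 and 430.3 CPM in MEFs, 424 and 411 CPM in CiSCs and 642 and 708 CPM in MSCs. MEFs and CiSCs differed by 1.05-fold, which did not pass (log2 fold change -0.06 ± 0.13, adjusted p = 0.714), and with total-count scaling the sign of that value turned. Both MSC libraries lay above the other 4 (log2 fold change 0.63 ± 0.13, adjusted p = 0.00845 against MEFs). Without 1 of the MSC libraries the call was lost, with adjusted p = 0.0536 without MSCs 1 and 0.0954 without MSCs 2. In CiSCs against MSCs (log2 fold change -0.69 ± 0.13, adjusted p = 0.00535) it was lost without CiSCs 1, CiSCs 2 or MSCs 2, at adjusted p-values of 0.057, 0.0633 and 0.0695.

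Itga4, the alpha 4 chain that binds VCAM1 and fibronectin on leukocytes and on some mesenchymal cells, lay at 254 and 82.3 CPM in MEFs, 19.4 and 21.4 CPM in CiSCs and 8.44 and 9.05 CPM in MSCs. Both MEF libraries stood above the other 4, yet the log2 ratio of MEFs 2 to MEFs 1 was -1.62. Itga4 fell in CiSCs (log2 fold change -3.04 ± 0.50, adjusted p = 0.00389) and in MSCs (log2 fold change -4.26 ± 0.54, adjusted p = 0.0012). Its size depended on the MEF library, since the log2 fold change in CiSCs was -2.04 without MEFs 1 and -3.63 without MEFs 2, and in MSCs -3.26 and -4.86. Unlike Ptprc, Itga4 was higher in both CiSC libraries than in both MSC libraries. That difference did not pass with all 6 libraries (log2 fold change 1.22 ± 0.50, adjusted p = 0.0925) and passed without MEFs 1 (adjusted p = 6.55e-05) or MEFs 2 (adjusted p = 5.15e-05) and in DESeq2 (adjusted p = 0.0165).

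Itga8, a receptor chain for nephronectin, lay at 182 and 84.2 CPM in MEFs, 33.8 and 47.8 CPM in CiSCs and 17.1 and 11.2 CPM in MSCs. The 3 groups did not overlap and stood in the order MEFs, CiSCs, MSCs. Itga8 fell in CiSCs (log2 fold change -1.71 ± 0.40, adjusted p = 0.0161) and in MSCs (log2 fold change -3.23 ± 0.43, adjusted p = 0.00153), and was higher in CiSCs than in MSCs (log2 fold change 1.53 ± 0.41, adjusted p = 0.0246). Without MEFs 1 these log2 fold changes against MEFs were -1.07 and -2.60. The fall in CiSCs was not called without CiSCs 1 (adjusted p = 0.104) or CiSCs 2 (adjusted p = 0.0536), and the difference from MSCs was not called without CiSCs 2, MSCs 1 or MSCs 2 (adjusted p-values 0.124, 0.0687 and 0.158).

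Itga9, a chain that binds tenascin C and osteopontin, was the one chain of this kind called higher in CiSCs than in MEFs with all 6 libraries, at 23.2 and 23.1 CPM in MEFs, 72.3 and 75.3 CPM in CiSCs and 62.6 and 57.3 CPM in MSCs. It rose in CiSCs (log2 fold change 1.67 ± 0.13, adjusted p = 0.000161) and in MSCs (log2 fold change 1.37 ± 0.13, adjusted p = 0.00034). CiSCs lay above MSCs in each library by 1.23-fold on average, which did not pass (log2 fold change 0.30 ± 0.13, adjusted p = 0.1) and passed without MEFs 1 (adjusted p = 0.02) or MEFs 2 (adjusted p = 0.0231). Itgav, the alpha v chain of vitronectin receptors, lay at 393 and 161 CPM in MEFs, 232 and 304 CPM in CiSCs and 349.7 and 320.1 CPM in MSCs. The 2 MEF libraries enclosed the other 4, and no comparison passed, with log2 fold changes of -0.05 ± 0.39 in CiSCs and 0.27 ± 0.39 in MSCs. Its direction in CiSCs depended on the MEF library, being 0.71 without MEFs 1 (adjusted p = 0.00867) and -0.55 without MEFs 2 (adjusted p = 0.0234), called in both. In MSCs it was 1.02 without MEFs 1 (adjusted p = 0.00164) and -0.23 without MEFs 2 (adjusted p = 0.262). Itga2b, the platelet alpha chain, stayed between 0.957 and 3.09 CPM and was higher in CiSCs than in MSCs (log2 fold change 1.20 ± 0.33, adjusted p = 0.0275), a call that was lost without any one of the CiSC or MSC libraries and in DESeq2 (adjusted p = 0.0624).

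The collagen receptors changed in which alpha chain led. Over all tested genes 19.6% rose and 21.3% fell in CiSCs against MEFs, and 22.5% rose and 20.0% fell in MSCs against MEFs. Of the 4 alpha chains that pair with Itgb1 on collagens, 2 rose and 1 fell in each of the comparisons against MEFs. None rose in CiSCs without CiSCs 2, and 1 rose in MSCs without any one of the CiSC or MSC libraries. Itga11, a collagen receptor chain of fibroblasts, lay at 266 and 278 CPM in MEFs, 104 and 103 CPM in CiSCs and 27.2 and 32.8 CPM in MSCs. It fell in CiSCs (log2 fold change -1.40 ± 0.14, adjusted p = 0.000427) and further in MSCs (log2 fold change -3.18 ± 0.15, adjusted p = 2.5e-05), with 3.44-fold more in CiSCs than in MSCs (log2 fold change 1.78 ± 0.14, adjusted p = 0.000138). Itga1, the chain that favours the collagen IV of basement membranes, lay at 31.5 and 18.6 CPM in MEFs, 60.7 and 75.3 CPM in CiSCs and 126 and 103 CPM in MSCs. It rose in CiSCs (log2 fold change 1.44 ± 0.27, adjusted p = 0.00696) and in MSCs (log2 fold change 2.19 ± 0.28, adjusted p = 0.00125), so that the 2 chains stood in opposite orders over the groups. Without CiSCs 2 the rise of Itga1 in CiSCs was not called (adjusted p = 0.0543). The difference between CiSCs and MSCs (log2 fold change -0.75 ± 0.27, adjusted p = 0.0629) passed without MEFs 1 (adjusted p = 0.00266) or MEFs 2 (adjusted p = 0.0025) and in DESeq2 (adjusted p = 0.0273).

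Per kilobase, Itga11 made up 95% ± 1.75 of the 4 collagen-binding alpha chains in MEFs (SD, n = 2), 73.2% ± 2.98 in CiSCs and 34.3% ± 5.58 in MSCs. Itga1 made up 3.98% ± 1.5, 21.8% ± 2.58 and 58.9% ± 6.45, and was thus the leading chain in MSCs. The sum of the 4 was 57.6 ± 0.769 CPM per kb in MEFs, 28.4 ± 0.939 CPM per kb in CiSCs and 17.6 ± 0.553 CPM per kb in MSCs. The other 2 chains were low. Itga10, a chain known from cartilage, lay at 2.17 and 2.23 CPM in MEFs, 6.01 and 7.16 CPM in CiSCs and 1.59 and 2.5 CPM in MSCs and rose in CiSCs (log2 fold change 1.58 ± 0.29, adjusted p = 0.00589), a call lost without CiSCs 2, and 34.5% of its exonic bases are shared with Gm42957 on the same strand. Itga2, which is known from platelets and epithelia, lay at 1.62 and 0.208 CPM in MEFs, 0.859 and 0.842 CPM in CiSCs and 5.58 and 5.49 CPM in MSCs and rose in MSCs (log2 fold change 2.58 ± 0.69, adjusted p = 0.0242), a call lost without any one of the CiSC or MSC libraries. This value was 4.66 without MEFs 1 and 1.77 without MEFs 2. In CiSCs against MEFs Itga2 did not pass (log2 fold change -0.11 ± 0.75, adjusted p = 0.923), and without MEFs 1 it was higher in CiSCs (log2 fold change 1.97, adjusted p = 0.0119). Markers of smooth muscle and peritubular cells, which can also express Itga1, were lower in CiSCs than in MEFs in 6 of 7, beside 21.3% of all tested genes. In MSCs 2 of 7 were higher than in MEFs, beside 22.5%. These markers summed to 3364 to 3782 CPM in MEFs, 1571 to 1742 CPM in CiSCs and 3858 to 4053 CPM in MSCs. Their part in these values was not tested.

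The laminin-binding alpha chains, which join cells to basement membranes, shifted in composition in CiSCs. Itga3 lay at 4.75 and 4.16 CPM in MEFs, 31.4 and 26.8 CPM in CiSCs and 31.6 and 42.6 CPM in MSCs. It rose 6.52-fold in CiSCs (log2 fold change 2.70 ± 0.21, adjusted p = 0.000169) and 8.32-fold in MSCs (log2 fold change 3.06 ± 0.21, adjusted p = 0.000108). All 4 CiSC and MSC libraries lay above both MEF libraries, and the difference between CiSCs and MSCs did not pass (log2 fold change -0.35 ± 0.19, adjusted p = 0.187). Itga6, known from epithelia and many stem cells, lay at 75 and 49.2 CPM in MEFs, 16.5 and 20 CPM in CiSCs and 71.3 and 73 CPM in MSCs. It fell in CiSCs against MEFs (log2 fold change -1.76 ± 0.23, adjusted p = 0.00146) and was lower there than in MSCs (log2 fold change -1.98 ± 0.23, adjusted p = 0.000731). Itga7, the muscle laminin receptor chain, lay at 24.3 and 23.4 CPM in MEFs, 3.94 and 3.44 CPM in CiSCs and 14.1 and 21.6 CPM in MSCs, and it likewise fell in CiSCs (log2 fold change -2.69 ± 0.25, adjusted p = 0.000309) and was lower than in MSCs (log2 fold change -2.27 ± 0.24, adjusted p = 0.000511). CiSCs thus lay above MEFs for Itga3, as MSCs did, and had the lowest level of any group for Itga6 and Itga7. Itga6 did not pass in MSCs against MEFs (log2 fold change 0.22 ± 0.22, adjusted p = 0.46), passed without MEFs 1 (adjusted p = 0.0121) and turned in sign without MEFs 2 (-0.06).

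Per kilobase, Itga3 made up 4.12% ± 0.492 of the 3 laminin-binding alpha chains in MEFs (SD, n = 2), 52.1% ± 5.22 in CiSCs and 25.2% ± 2.62 in MSCs. Itga6 made up 67.7% ± 5.7, 39.5% ± 5.9 and 59.6% ± 5.49. The sum was lowest in CiSCs, at 10.6 ± 0.145 CPM per kb against 20.8 ± 4.43 in MEFs and 27.9 ± 3.02 in MSCs. Endothelial markers, whose cells express Itga6 as well, were higher in MSCs than in MEFs for 7 of 9 tested and lower for 1, beside 22.5% and 20.0% of all tested genes. Cdh5 lay at 55.9 and 57.9 CPM in MSCs and at most 0.708 CPM elsewhere. Pecam1 and Tek were also among those higher in MSCs than in MEFs (log2 fold changes 4.11 and 2.25). In MSCs Pecam1 lay at 8.4 and 8.64 CPM and Tek at 1.01 and 0.978 CPM. The part of endothelial RNA in the Itga6 level of MSCs was not tested.

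Itgb1, the beta chain shared by most matrix receptors, was abundant in every group. It lay at 2692 and 1716 CPM in MEFs, 1805 and 1916 CPM in CiSCs and 1746 and 1686 CPM in MSCs, and no comparison passed, with log2 fold changes of -0.24 ± 0.22 in CiSCs and -0.36 ± 0.22 in MSCs. Its highest library was MEFs 1, and the other 5 lay between 1686 and 1916 CPM. Without MEFs 2 both values passed, at -0.53 in CiSCs (adjusted p = 0.00339) and -0.65 in MSCs (adjusted p = 0.00117), and without MEFs 1 the value in CiSCs was 0.09 (adjusted p = 0.481). Per kilobase it was at 2.19 ± 0.246 times the sum of its 12 alpha chains in MEFs (SD, n = 2), 2.54 ± 0.0015 times in CiSCs and 1.74 ± 0.103 times in MSCs. Itga5 was the leading partner by this measure in each group, at 39% ± 7.18, 49.8% ± 3.18 and 59.5% ± 2.06 of that sum.

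The partners of the alpha v chain did not change in one direction. Itgb5, of the vitronectin receptor in adherent cells, lay at 487 and 501 CPM in MEFs, 272 and 256 CPM in CiSCs and 188 and 203 CPM in MSCs. It fell in CiSCs (log2 fold change -0.91 ± 0.12, adjusted p = 0.0018) and in MSCs (log2 fold change -1.34 ± 0.12, adjusted p = 0.000331), with the 3 groups in separate ranges. Its difference between CiSCs and MSCs (log2 fold change 0.43 ± 0.12, adjusted p = 0.0303) was not called without any one of CiSCs 1, CiSCs 2, MSCs 1 or MSCs 2 (adjusted p 0.191, 0.13, 0.224 and 0.137). Itgb3, of osteoclasts, platelets and activated fibroblasts, lay at 55.2 and 33.2 CPM in MEFs, 26.2 and 29.2 CPM in CiSCs and 7.58 and 7.95 CPM in MSCs. It fell in MSCs (log2 fold change -2.51 ± 0.26, adjusted p = 0.000523). In CiSCs both libraries were below both MEF libraries but the difference did not pass (log2 fold change -0.68 ± 0.24, adjusted p = 0.0655), and it passed without MEFs 2 (adjusted p = 0.000282) and in DESeq2 (adjusted p = 0.0461).

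Itgb8, which with the alpha v chain frees active TGF-beta from its latent complex, was high in MSCs alone, at 0.202 and 0.156 CPM in MEFs, 0.477 and 0.795 CPM in CiSCs and 38.6 and 35.3 CPM in MSCs. It rose 199-fold in MSCs against MEFs (log2 fold change 7.64 ± 0.31, adjusted p = 1.75e-05) and was 57.5-fold lower in CiSCs than in MSCs (log2 fold change -5.84 ± 0.26, adjusted p = 1.89e-05). In CiSCs it rose from 7 reads over both MEF libraries to 27 reads over both CiSC libraries (log2 fold change 1.79 ± 0.42, adjusted p = 0.0161), a call lost without CiSCs 2 (adjusted p = 0.141) and with only MEFs and CiSCs in the fit (adjusted p = 0.065). Even in MSCs it made up 0.857% ± 0.041 of the beta chains that pair with alpha v, per kilobase, against 11.2% ± 0.78 for Itgb5. The beta chains of epithelia were low or absent in the counts. Itgb4, of hemidesmosomes, stayed between 1.16 and 2.24 CPM with no comparison passed, and Itgb6 had 0 reads in all 6 libraries, which allows up to 0.0769 CPM in MEFs, 0.0709 in CiSCs and 0.0806 in MSCs.

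**Figure D3:**
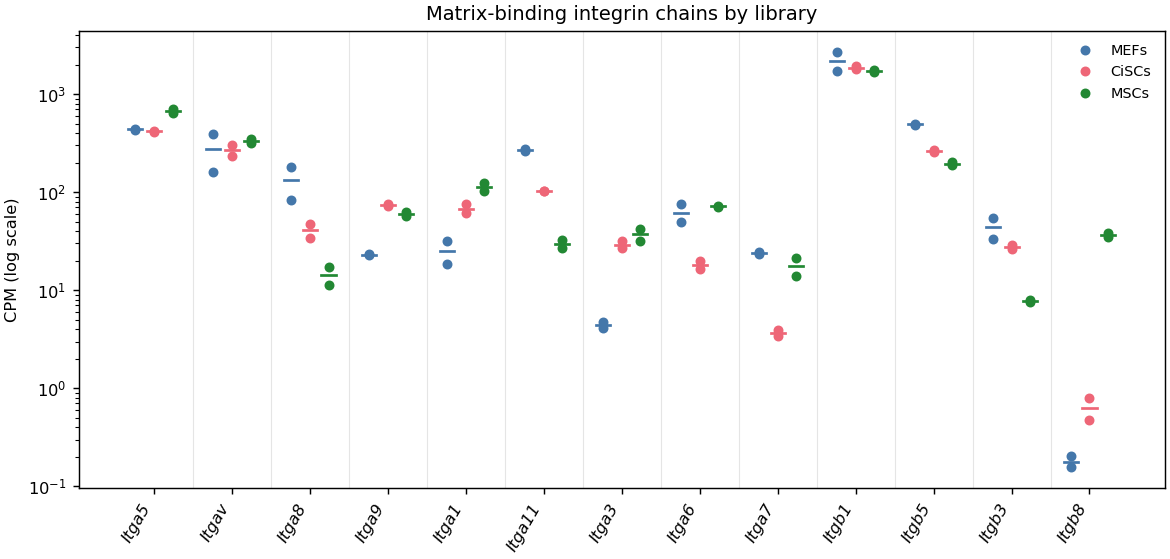
CPM on a log scale for 13 integrin chains that bind matrix, with 1 point per library and a bar at the mean of each group of 2. Itga3 and Itga1 rise from MEFs to both other groups, Itga11 and Itga8 fall in the order MEFs, CiSCs, MSCs, Itga6 and Itga7 are lowest in CiSCs, and Itgb8 stands apart in MSCs.

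Most laminin chains rose. Of 9 tested, 9 were higher in MSCs than in MEFs, beside 22.5% of all tested genes, and 5 were higher and 1 lower in CiSCs than in MEFs, beside 19.6% and 21.3%. Without MSCs 1 or MSCs 2 the first count was 6 of 9, as Lama3, Lama4 and Lamb1 were no longer called. The 5 became 3 without CiSCs 2, as Lamb1 and Lamc1 were then not called. In CiSCs against MSCs 6 were lower and 1 higher, beside 25.1% and 17.7% of all tested genes. Without any one of the CiSC or MSC libraries fewer were called lower. Lama1, the alpha chain of the first laminin of embryonic basement membranes and of the seminiferous tubule, lay at 0.708 and 0.364 CPM in MEFs, 12.6 and 15 CPM in CiSCs and 281 and 265 CPM in MSCs. It rose 25.4-fold in CiSCs (log2 fold change 4.67 ± 0.27, adjusted p = 4.93e-05) and 502-fold in MSCs (log2 fold change 8.97 ± 0.28, adjusted p = 1.07e-05). CiSCs remained 19.8-fold below MSCs (log2 fold change -4.31 ± 0.21, adjusted p = 2.19e-05), so the 3 groups were far apart. The MEF level rested on 21 reads over both libraries. Beside the laminin levels of MSCs stand the markers of other testis cells named earlier. Higher in MSCs than in MEFs were 5 of 5 tested Leydig and 7 of 9 tested endothelial markers, beside 22.5% of all tested genes. Insl3, one of these 5 Leydig markers, lay at 60.3 and 64.6 CPM in MSCs. Their part in these levels was not tested.

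Lama2, the alpha chain of muscle and peripheral nerve laminin, lay at 19.5 and 15.2 CPM in MEFs, 38.1 and 51.9 CPM in CiSCs and 78.1 and 70.3 CPM in MSCs. It rose in CiSCs (log2 fold change 1.37 ± 0.21, adjusted p = 0.00278) and in MSCs (log2 fold change 2.10 ± 0.21, adjusted p = 0.00046). CiSCs were lower than MSCs (log2 fold change -0.72 ± 0.20, adjusted p = 0.0284), a difference not called without CiSCs 1, MSCs 1 or MSCs 2 (adjusted p-values 0.195, 0.167 and 0.1). Lama4, the alpha chain of laminins of vessels and mesenchyme, lay at 236 and 199.9 CPM in MEFs, 248 and 281 CPM in CiSCs and 381 and 369.5 CPM in MSCs. It rose in MSCs (log2 fold change 0.78 ± 0.14, adjusted p = 0.00577), while the value in CiSCs did not pass (log2 fold change 0.28 ± 0.14, adjusted p = 0.17). The rise in MSCs was not called without MSCs 1 (adjusted p = 0.0596) or MSCs 2 (adjusted p = 0.0509), and the value in CiSCs passed without MEFs 1 (adjusted p = 0.0243). The difference of Lama4 between CiSCs and MSCs (log2 fold change -0.51 ± 0.14, adjusted p = 0.0292) was lost without any one of the CiSC or MSC libraries (adjusted p from 0.0972 to 0.229) and with total-count scaling (adjusted p = 0.164).

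Lama5, the alpha chain of mature epithelial and endothelial basement membranes, was highest in CiSCs, at 14.7 and 16.6 CPM in MEFs, 44.9 and 46.4 CPM in CiSCs and 28 and 27.6 CPM in MSCs. It rose in CiSCs (log2 fold change 1.55 ± 0.13, adjusted p = 0.000228) and in MSCs (log2 fold change 0.83 ± 0.13, adjusted p = 0.0031), and CiSCs exceeded MSCs (log2 fold change 0.72 ± 0.13, adjusted p = 0.00472). It was the one laminin chain called higher in CiSCs than in MSCs, and that call was lost without CiSCs 2, MSCs 1 or MSCs 2 (adjusted p-values 0.0542, 0.0537 and 0.0571). Lama3, the alpha chain of the laminin under epidermis, was low throughout, at 0.556 and 0.624 CPM in MEFs, 0.0477 and 0.0468 CPM in CiSCs and 1.91 and 1.96 CPM in MSCs. Its reads over a group's 2 libraries numbered 23 for MEFs, 2 for CiSCs and 72 for MSCs. The ratio of MEFs to CiSCs was 12.5, with an exact 95% counting interval of 3.08 to 109, and that of MSCs to CiSCs was 41.0, with an interval of 10.9 to 345 (adjusted p = 0.00377 and 0.000347). The rise of Lama3 in MSCs against MEFs (log2 fold change 1.70 ± 0.36, adjusted p = 0.00989) was not called without MSCs 1 or MSCs 2, or in DESeq2 (adjusted p = 0.0737).

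Among the beta and gamma chains, Lamb1 and Lamc1, which complete most of the laminins of early and mesenchymal basement membranes, rose in both groups. Lamb1 lay at 539 and 437 CPM in MEFs, 817 and 896 CPM in CiSCs and 682 and 703 CPM in MSCs. It rose in CiSCs (log2 fold change 0.81 ± 0.15, adjusted p = 0.00689) and in MSCs (log2 fold change 0.50 ± 0.15, adjusted p = 0.0376). Without CiSCs 2 the rise in CiSCs was not called (adjusted p = 0.0718), and the rise in MSCs was not called without any one of CiSCs 1, CiSCs 2, MSCs 1 and MSCs 2 (adjusted p from 0.0998 to 0.191), with the replicate number as a block (adjusted p = 0.076) or with total-count scaling (adjusted p = 0.0797). CiSCs lay above MSCs in each library (log2 fold change 0.31 ± 0.15, adjusted p = 0.155), and this passed without MEFs 1 (adjusted p = 0.0167) or MEFs 2 (adjusted p = 0.0153).

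Lamc1, the gamma chain of nearly all laminins, lay at 349.9 and 233 CPM in MEFs, 567 and 670.0 CPM in CiSCs and 719.8 and 712 CPM in MSCs. It rose in CiSCs (log2 fold change 1.09 ± 0.22, adjusted p = 0.00838) and in MSCs (log2 fold change 1.30 ± 0.22, adjusted p = 0.00393), with all 4 of these libraries above both MEF libraries. The rise in CiSCs was not called without CiSCs 2 (adjusted p = 0.0702). Lamb2, the beta chain of the neuromuscular junction and the kidney filter, lay at 174 and 184 CPM in MEFs, 225 and 241 CPM in CiSCs and 375 and 411 CPM in MSCs. It rose in MSCs (log2 fold change 1.13 ± 0.13, adjusted p = 0.000723), and in CiSCs it missed the threshold (log2 fold change 0.38 ± 0.13, adjusted p = 0.0531) while passing without MEFs 1 (adjusted p = 0.0417) or MEFs 2 (adjusted p = 0.0166), in DESeq2 (adjusted p = 0.0294) and with total-count scaling (adjusted p = 0.0197). CiSCs were lower than MSCs (log2 fold change -0.75 ± 0.13, adjusted p = 0.0036), which was lost without CiSCs 1 (adjusted p = 0.0577) or MSCs 2 (adjusted p = 0.051).

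Lamc3, a gamma chain with a narrow range of tissues, had nearly all its reads in MSCs, at 0 and 0.104 CPM in MEFs, 0 and 0.0468 CPM in CiSCs and 10.1 and 9.78 CPM in MSCs. Reads over the 2 libraries of a group numbered 2 for MEFs, 1 for CiSCs and 369 for MSCs. The ratio of MSCs to MEFs was 193, with an exact 95% counting interval of 53.2 to 1600, and that of MSCs to CiSCs was 420, with an interval of 74.9 to 16600. Both differences passed, with adjusted p = 0.000236 and 0.000165. Lamb3, the epidermal beta chain, was not tested, its reads numbering 3 for MEFs, 0 for CiSCs and 11 for MSCs. The windows around the starts of Lama5 and Lamb1 are shown because both chains rose in CiSCs and both have several matches to the motif GGGCGG, which is bound by the transcription factor Sp1. They lie at chr2:180225810-180226109 on the minus strand and chr12:31265043-31265342 on the plus strand of GRCm38.p6, from RefSeq, with the same span as above, and capitals mark that motif, as its reverse complement where it lies on the other strand.
Lama5: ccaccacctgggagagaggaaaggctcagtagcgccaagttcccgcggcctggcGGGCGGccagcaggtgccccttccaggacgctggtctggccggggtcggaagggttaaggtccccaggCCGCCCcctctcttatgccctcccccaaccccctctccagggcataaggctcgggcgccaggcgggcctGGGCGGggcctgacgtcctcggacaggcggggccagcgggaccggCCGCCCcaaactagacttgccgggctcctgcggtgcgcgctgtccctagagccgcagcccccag
Lamb1: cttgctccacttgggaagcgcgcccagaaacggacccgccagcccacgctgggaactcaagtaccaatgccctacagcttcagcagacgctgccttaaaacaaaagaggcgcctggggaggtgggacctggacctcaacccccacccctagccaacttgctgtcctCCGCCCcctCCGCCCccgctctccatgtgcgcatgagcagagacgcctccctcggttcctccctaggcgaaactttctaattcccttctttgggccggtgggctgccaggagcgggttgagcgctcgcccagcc
The Lama5 window held 4 matches, 2 on each strand, and the Lamb1 window held 2, both on the strand opposite the printed one. Among all 32851 windows 35.7% held a match, as did 12 of the 26 windows of the chains. Matches did not go with one direction of change in CiSCs. The window of Itgb5, which fell, held 3, and that of Itga5, which did not pass, held 2. Of chains that rose, Itga1 and Itga9 held 0, and the windows of Itga3 held 1 and 3. A match is again a description of letters, and binding by Sp1 was not tested. The 2 motifs were searched separately, so a window can hold both, as those of Itgam, Lama5 and Lamb1 do, with the other motif left in lower case.

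Per kilobase, Lama4 was the leading laminin alpha chain in every group, with shares that differed between the groups. It made up 91.7% ± 0.399 of the 5 alpha chains in MEFs (SD, n = 2), 81.3% ± 0.567 in CiSCs and 61.5% ± 0.573 in MSCs. Lama1 made up 0.14% ± 0.049, 2.69% ± 0.077 and 28.4% ± 0.313. The other share gained in CiSCs lay with Lama2, at 8.48% ± 1.04 against 4.48% ± 0.282 in MEFs, and Lama5, at 7.49% ± 0.546 against 3.53% ± 0.702. The sum of the alpha chains was 39.3 ± 4.48 CPM per kb in MEFs, 53.7 ± 5.14 in CiSCs and 101 ± 3.19 in MSCs. Among the beta chains Lamb1 led in each group, with 72.2% ± 3.74, 78% ± 0.279 and 62.9% ± 1.01, and among the gamma chains Lamc1 held at least 98.2% of the sum in every library.

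**Figure D4:**
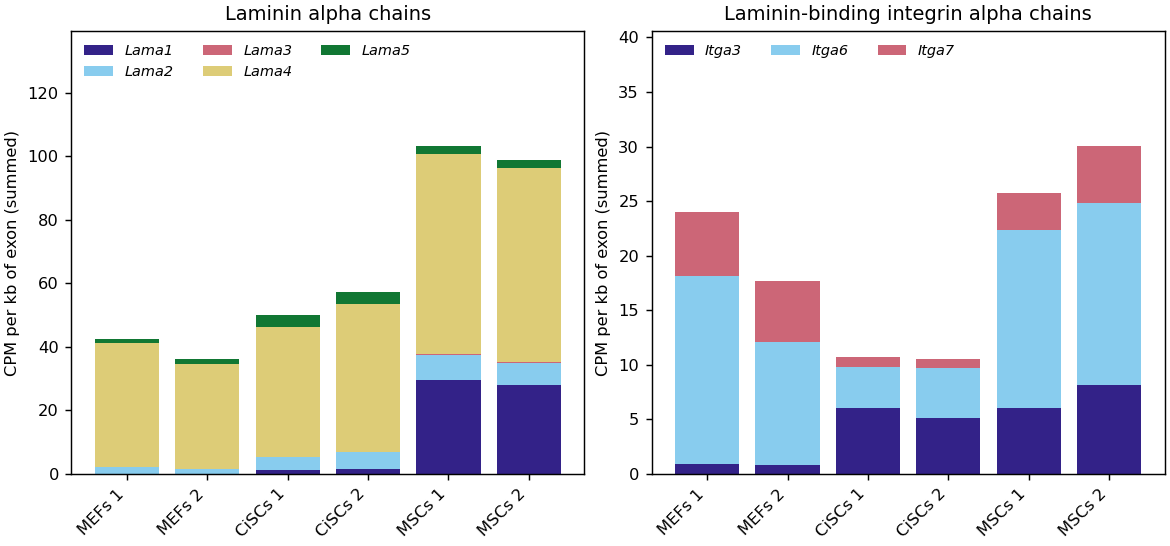
Stacked CPM per kilobase of exon in each of the 6 libraries for the 5 laminin alpha chains (left) and the 3 laminin-binding integrin alpha chains (right). Lama4 fills most of each left-hand bar and Lama1 is visible mainly in MSCs, and on the right Itga3 takes up a mean of 52.1% of the CiSC bars while the CiSC bars are the lowest.

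The genes that work with these chains are given from lists chosen for their roles. One list held basement membrane proteins and partners of them or of integrins, some at the cell surface, such as Dag1, Bcam and Cd151. Of its 23 tested genes, 12 rose and 6 fell in CiSCs against MEFs, beside 19.6% and 21.3% of all tested genes. The median log2 fold change of the list was 0.69 beside -0.0022 over all tested genes. In MSCs against MEFs 18 rose and 2 fell, beside 22.5% and 20.0%, with a median of 2.05 beside 0.010. In CiSCs against MSCs 16 of 23 were lower and 5 higher in CiSCs, beside 25.1% and 17.7%. Nid1, which links laminin to collagen IV, lay at 716 and 423 CPM in MEFs, 4592 and 4867 CPM in CiSCs and 997 and 956 CPM in MSCs and was highest in CiSCs (against MEFs log2 fold change 3.05 ± 0.27, adjusted p = 0.000274). Nid2, its relative, lay at 26.8 and 26.4 CPM in MEFs, 146 and 153 CPM in CiSCs and 447 and 467 CPM in MSCs and rose in both groups (log2 fold change 2.49 ± 0.12, adjusted p = 3.01e-05 in CiSCs). Col15a1 and Col18a1, collagens next to basement membranes, both rose in CiSCs, and Col18a1 was higher there than in MSCs (log2 fold change 2.60 ± 0.13, adjusted p = 2.71e-05). Col4a3 and Col4a4, collagen IV chains of mature basement membranes, stood at 179.8 and 168 CPM and 416 and 399.8 CPM in MSCs and at no more than 0.739 CPM in any other library. Like Lamc3 and Itgb8, they were far lower in CiSCs than in MSCs.

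Of 26 tested adaptors of integrin tails, 4 rose and 9 fell in CiSCs against MEFs, beside 19.6% and 21.3% of all tested genes, and 8 rose and 7 fell in MSCs against MEFs, beside 22.5% and 20.0%. Fermt3 and Parvg, the kindlin and parvin of blood cells, fell with Itgb2. Fermt3 lay at 86.4 and 149.8 CPM in MEFs, 1.31 and 1.59 CPM in CiSCs and 15.6 and 15.6 CPM in MSCs, and Parvg at 39.3 and 52.8 CPM in MEFs, 0.382 and 0.281 CPM in CiSCs and 8.03 and 5.92 CPM in MSCs. Ptk2b, a kinase related to focal adhesion kinase, fell in CiSCs (log2 fold change -2.55 ± 0.13, adjusted p = 3.24e-05), and Tns2, a tensin that binds beta tails, rose there (log2 fold change 2.58 ± 0.13, adjusted p = 2.86e-05). Of 16 tested integrin ligands outside the basement membrane, 2 rose and 11 fell in CiSCs against MEFs, beside 19.6% and 21.3% of all tested genes, and 3 rose and 10 fell in MSCs against MEFs, beside 22.5% and 20.0%. Tnc, a matrix protein bound by Itga9, lay at 7470 and 6058 CPM in MEFs, 1508 and 1408 CPM in CiSCs and 229 and 266 CPM in MSCs, falling in CiSCs (log2 fold change -2.21 ± 0.18, adjusted p = 0.000189) while Itga9 itself rose. Postn, a ligand of alpha v integrins, lay at 4594 and 4920 CPM in MEFs, 1674 and 1320 CPM in CiSCs and 109.9 and 121 CPM in MSCs, with the groups in the same order as Itga11. Icam1, the ligand of Itgal and Itgam with Itgb2, fell in CiSCs (log2 fold change -4.15 ± 0.19, adjusted p = 2.42e-05) and was at 8.63 and 8.14 CPM there against 114 and 120.3 CPM in MSCs. F11r, a junction protein that binds Itgal, rose in CiSCs (log2 fold change 2.39 ± 0.13, adjusted p = 4.38e-05).

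The MEF libraries differed from each other more than the libraries of the other groups did, and by the length of the gene. The median log2 ratio of MEFs 2 to MEFs 1 was 0.42 for genes with under 2000 exonic bases and -0.42 for genes with 6000 or more, over 1933 and 1713 genes at 10 CPM or more. The same medians ran from -0.11 to 0.11 in CiSCs and from 0.047 to -0.10 in MSCs. The chains had exonic lengths of 2.68 to 11.4 kb, and of the 21 chains at 10 CPM or more in MEFs, 14 were lower in MEFs 2 and 8 differed by more than 1.5-fold. Among these were Itga4, Itga8, Itgav and Itgb1. The part of this difference in the changes of single chains was not tested, and calls that change without 1 MEF library are given beside each chain. Itgam and Itgb2 were higher in MEFs 2, as were Lyz2 at 7161 and 12500 CPM and Csf1r. Ptprc, at 168 and 121 CPM, and Itgax, at 6.66 and 5.18 CPM, were lower there, so leukocyte genes did not differ in one direction. Lyz2 and Itgb2 have exonic lengths of 1.32 and 2.97 kb, in the shorter classes.

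**Figure D5:**
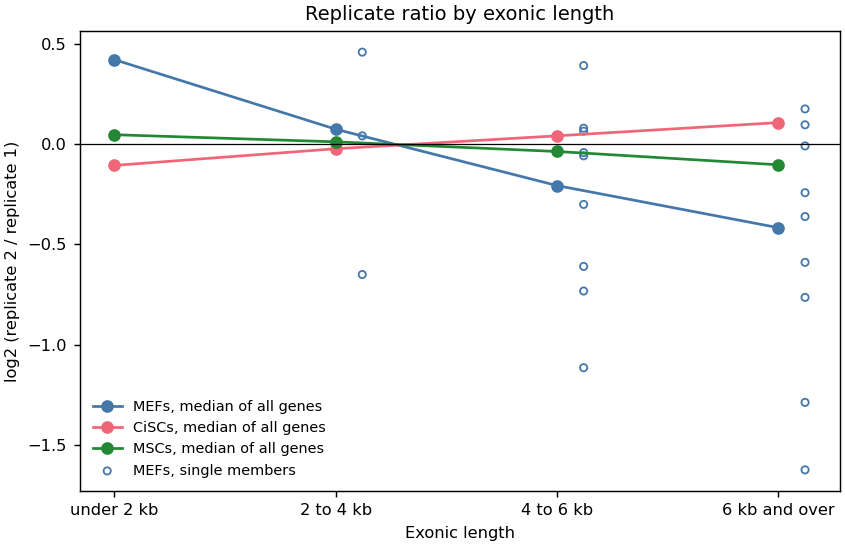
Median log2 ratio of replicate 2 to replicate 1 (vertical axis) by exonic length class (horizontal axis) for each group, with lines through the class medians of all genes and open circles for single chains in MEFs. The MEF line falls from 0.42 to -0.42, the lines of the other groups stay within 0.11 of 0, and the chains spread around the MEF line in the longer classes.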

How the data were processed

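RNA of 6 mouse libraries had been sequenced. The authors deposited read counts per gene under Entrez Gene identifiers, and these values were handled like expected counts. Per the submitters' processing notes HISAT and build mm9 were used. Versions, counting program, annotation, strand and filters are not given in the sources used here. Between 42.0% and 43.8% of the values were not whole (tolerance 1e-09), so they may be expected counts or normalised values, which cannot be told apart. Of 20007 identifiers, 18891 matched a symbol in a RefSeq table of GRCm38.p6. As that build differs from mm9, the only coordinates given are those of promoter windows, in GRCm38.p6.

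Counts were rounded and fitted in R 4.3.3 with edgeR 4.0.16 (filterByExpr, TMM, 1 mean per group over all 6 libraries, 3 residual degrees of freedom). Two-sided quasi-likelihood tests were adjusted over 15272 genes. Values after ± beside log2 fold changes are standard errors, the size of the change over the square root of F. The procedure was also run on simulated counts in which few genes changed, in CiSCs alone, and replicates had no difference by gene length. That setting differs from these data, so the run cannot show how well the calls hold here. Exonic length was the union of exons of protein-coding transcripts in GENCODE vM21 (GRCm38), found for 91.6% of tested genes and all 36 chains. A count of 0 allows 3 reads over a group, and such limits and intervals cover counting error only.

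The chains, gene lists and tests were chosen with earlier results of these data known. By rule, values by library are given for 23 chains that reached a mean of 10 CPM in a group and passed in at least 1 comparison, and for others where a role would lack them. From each other list up to 4 genes with the smallest adjusted p in a comparison could be named. Fshr, Cd3e, Cd79a, Cyp17a1, Insl3, Lhcgr, Hsd17b3, Cpa3, Tpsb2, Tek, Dag1, Bcam and Cd151 were named outside this choice, most of them after their values were seen. Alternatives were leaving out each library, a block for replicate number, fits of the compared groups alone, an adjusted p under 0.01, no filter, a filter of 5 CPM in 2 libraries, median-ratio factors, total counts, DESeq2 1.42.0 and counts not rounded. A block with crossed replicate numbers was added after seeing the data.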

Additional observations from a re-analysis of the deposited data

How the results depend on the processing

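With an adjusted p under 0.01, edgeR called 3774 genes in CiSCs against MEFs, 4009 in MSCs against MEFs and 4324 in CiSCs against MSCs, where the threshold of 0.05 gave 6250, 6497 and 6534. Leaving out 1 library gave 3395 to 9487, 3516 to 9745 and 3910 to 9369 genes, with 3395 without CiSCs 2, 3516 without MSCs 2, 3910 without MSCs 2 and the highest counts without a MEF library. The number of integrin and laminin chains called then ran from 15 to 25, from 19 to 27 and from 13 to 28. A group left with 1 library is assumed to vary like the others. Deviations of same-numbered libraries from their group means correlated at -0.21 for MEFs and CiSCs, 0.14 for MEFs and MSCs and -0.13 for CiSCs and MSCs. With 2 libraries per group this gives 1 value for each pair of groups, which cannot decide whether replicate numbers pair the samples. With the replicate number as a block, 21, 24 and 21 chains were called, and 5468, 5672 and 5814 genes. With crossed numbers, 23, 25 and 24 chains and 6829, 7158 and 6998 genes were called. Over all 33 tested chains the sign turned for 19 values, of which 2 were called after turning, both in CiSCs against MEFs without MEFs 1: Itgav at 0.71 and Itga2 at 1.97. None of the 19 was called with all libraries. Over the left-out libraries, the log2 fold change in CiSCs against MEFs ran from -0.55 to 0.71 for Itgav, -0.92 to 1.97 for Itga2, -0.53 to 0.090 for Itgb1, -0.16 to 0.66 for Itgb4 and -3.18 to 2.25 for Lamc3, with Itgav also at 0.12 and Itgb4 at -0.15 without CiSCs 1. In MSCs against MEFs it ran from -0.23 to 1.02 for Itgav, -0.059 to 0.52 for Itga6, -0.46 to 0.18 for Itga10 and -0.0027 to 0.825 for Itgb4, and in CiSCs against MSCs from -0.50 to 0.11 for Itgb4. With the replicate block Itgav was 0.047 and Itga2 0.054 in CiSCs against MEFs. With total counts Itga5 was 0.060, Itgav 0.078 and Itga2 0.014 there, and Itgb4 was 0.072 and Lamc1 0.027 in CiSCs against MSCs. The cause was not tested. Total-count scaling shifted the median log2 fold change of all tested genes by 0.12, -0.11 and 0.24, and the share of calls that were higher was 57.0%, 44.4% and 56.9% instead of 48.0%, 52.9% and 41.3%. Of 1469 values of single chains under alternatives, 1335 kept direction and side of the threshold, 87 lost a call and 28 gained one in the same direction. No chain called both with and without an alternative changed sign. At 19294671 counts or more per library, Itgae, Itgb6 and Lamb3 were too low to test, and 9 chains besides Itgam and Itga10 share up to 8.41% of their exonic bases with another gene model.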

Other observations

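Per kilobase of exon, the summed laminin alpha chains stood at 0.926 and 1.18 times the summed gamma chains in the 2 MEF libraries, 0.673 and 0.653 times in CiSCs and 1.07 and 1.04 times in MSCs. Both CiSC libraries were thus below the other 4, with more Lamc1 beside each unit of alpha chain. The summed beta chains stood at 2.68 and 3.53 times the gamma chains in MEFs, 2.42 and 2.23 times in CiSCs and 1.91 and 2.03 times in MSCs. These ratios were computed after the chain values were seen, and no test was made of them.

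Kit and Cma1, from the list of platelet and mast cell markers, were read in CiSCs at 5.63 and 6.74 CPM and at 6.11 and 5.05 CPM, while the mast cell marker Cpa3 reached at most 0.14 CPM and Tpsb2 0.0468 CPM there. Emcn, from the endothelial list, was at 9.45 and 11.5 CPM in CiSCs, beside Cdh5 at 0.0477 and 0.0468 CPM.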
